A study of Homo sapiens with 16 samples.

Results

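The response to bacterial lipopolysaccharide (LPS) that THP-1 and U937 have in common was measured in 8 of the 16 RNA-seq libraries of a study of 4 immune cancer lines. THP-1 and U937 are human monocytic leukaemia and lymphoma lines that grow in suspension. All THP-1 cells expressed dCas9-KRAB, a fusion of catalytically dead Cas9 and the KRAB repressor, in the untreated and the treated libraries alike. They were left untreated (2 libraries) or received LPS of E. coli K12 at 1 µg/ml for 4 hours (2 libraries). The U937 cells were WT and were left untreated (2 libraries) or received LPS at 200 ng/ml for 4 hours (2 libraries). Line, dose and the dCas9-KRAB construct therefore change together and cannot be told apart. The other 8 libraries came from the T cell line Jurkat and the B cell line BJAB. Members were chosen by label: the 4 LPS libraries against the 4 controls, with 1 treatment effect and the line as a covariate. No label says that the 2 libraries of a group came from separate cultures, so the p-values measure only the spread of these libraries, which may be technical. In the main fit, with line and LPS as its terms, that spread also holds any difference in LPS response between the lines.

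LPS is sensed at the cell surface by TLR4 with its partner LY96 (MD-2), to which CD14 delivers the ligand. The adaptors MYD88 and TIRAP pass the signal to kinases that release the transcription factor NF-kB from its inhibitors, and a second, endosomal branch activates interferon regulatory factors. Monocytes answer within hours with chemokines, cytokines and the inhibitors that end the NF-kB signal. Values are given in transcripts per 1000000 (TPM), a level per transcript length within a library, and differences on the scale of log2(TPM + 1), which understates the change of genes with low levels.

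The lines were checked against markers of their type. Of 26 monocytic markers, 19 to 23 stood at 1 TPM or more in each of the 8 libraries, with a summed level of 9963 to 12237 TPM. T lineage markers summed to 13.4 to 29.6 TPM and B lineage markers to 12.3 to 29.1 TPM. The granule proteases CTSG and ELANE had the highest levels among the monocytic markers, with CTSG at 1423 to 1590 TPM in THP-1 and 4656 to 7142 TPM in U937. In each of the 8 libraries, 2 to 5 of the 26 monocytic markers stood at 0. CD14 stood at 6.31 and 5.42 TPM in the THP-1 controls and at 4.49 and 8.68 TPM after LPS, while each of the 4 U937 libraries lists it at 0. LY96 stood at 2.92 and 0.419 TPM in the THP-1 controls, 0.425 and 1.96 TPM after LPS, 14.8 and 10.7 TPM in the U937 controls and 18.9 and 11 TPM after LPS.

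Promoters of genes high after LPS in both lines are shown first, because NF-kB binds the κB motif. Of the 14 named rises, picked by the rule given with the processing, CXCL10, NFKBIA and CCL20 had a κB match in the RefSeq promoter table (GRCh38.p14). TNFAIP6, IL4I1, CCL3, IL1B and TNF were in that table without a match. Each line gives the 250 bases before the start site, 5′ to 3′ on the gene's strand, with the matches to the κB consensus in capitals. The windows are chr4:76023498-76023747, minus strand, chr14:35404750-35404999, minus strand, and chr2:227813592-227813841, plus strand.
CXCL10: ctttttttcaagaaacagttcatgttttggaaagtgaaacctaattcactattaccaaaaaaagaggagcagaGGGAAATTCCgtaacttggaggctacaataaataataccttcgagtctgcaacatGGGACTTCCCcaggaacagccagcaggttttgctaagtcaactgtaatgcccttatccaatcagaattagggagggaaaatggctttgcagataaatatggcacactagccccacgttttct
NFKBIA: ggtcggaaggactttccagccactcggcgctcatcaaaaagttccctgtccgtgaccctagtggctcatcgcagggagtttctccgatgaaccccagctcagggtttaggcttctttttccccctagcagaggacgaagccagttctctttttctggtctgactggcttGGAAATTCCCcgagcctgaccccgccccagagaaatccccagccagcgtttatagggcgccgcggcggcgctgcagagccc
CCL20: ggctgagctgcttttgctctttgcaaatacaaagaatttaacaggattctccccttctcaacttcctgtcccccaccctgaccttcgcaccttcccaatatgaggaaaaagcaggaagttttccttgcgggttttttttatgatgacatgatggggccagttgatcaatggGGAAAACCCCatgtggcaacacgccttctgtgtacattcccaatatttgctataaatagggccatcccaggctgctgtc
The matches begin 177 and 122 bases before the start site of CXCL10, 81 before that of NFKBIA and 79 before that of CCL20. Windows of 300 bases, which run 50 bases past the start site, were searched on both strands. The κB consensus was found in 13.3% of all 27305 genes of the table and in 17.1% of the 9581 tested genes with a promoter there. Among the genes past the threshold below, 4 were in the table and 2 of these had a match. Of the 144 genes in the table that were higher after LPS without overlap in both lines, 19 (13.2%) had one. The interferon response core GAAANNGAAA was in 4.38% of the promoters of the table and the AP-1 motif TGANTCA in 9.37%. CXCL10 was the only 1 of those 4 genes with a match to the interferon response core. A match describes these letters and does not show binding.

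The 8 libraries held 4125221 to 8431295 reads, as recovered from the smallest increments of TPM. Over the 12799 tested genes the correlation within a pair was r = 0.981 to 0.989 in 3 groups and r = 0.935 for U937 with LPS. The log2 difference between the 2 U937 LPS libraries had an SD of 0.919, against 0.354 to 0.468 in the other 3 groups. When tested genes were split by transcript length into 5 equal bins, U937 LPS library 1 differed from the U937 controls by a median log2 value of 0.24 in the shortest bin and -0.88 in the longest. The same medians in U937 LPS library 2 were 0.04 and -0.09. Beta-actin (ACTB) stood at 3779 TPM in U937 LPS library 1 and at 8785 TPM in library 2. Results are therefore given with and without U937 LPS library 1. Where it is left out, U937 has 1 LPS library, whose spread is assumed to be that of the other groups.

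**Figure D1:**
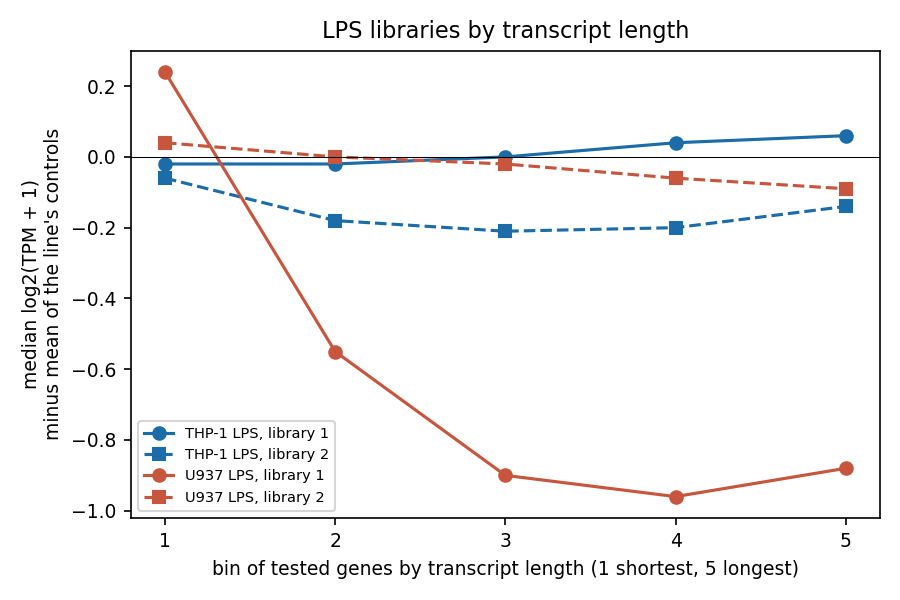
Median log2(TPM + 1) difference of each LPS library from the mean of its line's controls (vertical axis), over 5 equal bins of the tested genes from the shortest (1) to the longest (5) transcripts (horizontal axis). U937 LPS library 1 runs from 0.24 to -0.88, while the other 3 libraries stay between -0.21 and 0.06.

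LPS raised the transcript levels of 6 genes over both lines. These 6 of 12799 tested (0.0469%) rose past an adjusted p of 0.05 in the fit of 1 LPS effect over both lines, and 0 (0%) fell. In each of the 6, both LPS libraries lay above both controls in THP-1 and again in U937. They are CXCL10 and CCL4, which encode chemokines, TNFAIP6, a secreted hyaluronan-binding protein, IL4I1, a secreted amino acid oxidase, NFKBIA, the NF-kB inhibitor IκBα, and FTH1, the heavy chain of the iron store ferritin. At an unadjusted p under 0.05 there were 140 higher and 323 lower genes. The limma-voom test on the recovered reads called 5 of the 6 higher, without FTH1, and 0 lower.

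CXCL10, the ligand of CXCR3 on T cells, stood at 0 and 0 TPM in the THP-1 controls, 30.3 and 24.3 TPM after LPS, 0 and 1.48 TPM in the U937 controls and 46.1 and 44.3 TPM after LPS. The 4 controls held 0, 0, 0 and 6 reads, and the LPS libraries held 98 to 207 reads. Against the level of 3 reads per control library, the mean of 27.3 ± 4.27 TPM (SD, n = 2) in THP-1 was at least 39.7-fold higher. The common log2 effect was 4.84 ± 0.28 (SE, adjusted p = 0.00115). CCL4, a chemokine that attracts monocytes and T cells, stood at 0 TPM in all 4 controls, 16.1 and 17.2 TPM in THP-1 after LPS and 53.2 and 25.3 TPM in U937 after LPS. It was at least 13.3-fold higher in THP-1 and at least 20.9-fold higher in U937, with a log2 effect of 4.69 ± 0.31 (SE, adjusted p = 0.00138). CCL4 has near-identical copies, CCL4L1 and CCL4L2, which were listed at 0 in all 8 libraries, so its level is uncertain.

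TNFAIP6 stood at 2.1 and 0.362 TPM in the THP-1 controls, 17.5 and 12.3 TPM after LPS, 0 and 0 TPM in the U937 controls and 4.56 and 5.74 TPM after LPS. The groups did not overlap in either line, and the U937 LPS libraries held 24 and 29 reads. In U937 the gene was at least 5.86-fold higher, and the common log2 effect was 2.77 ± 0.28 (SE, adjusted p = 0.0284). IL4I1 stood at 1.92 and 1.14 TPM in the THP-1 controls, 19.8 and 14.5 TPM after LPS, 4.71 and 3.85 TPM in the U937 controls and 18.4 and 21.1 TPM after LPS. The lines differed in their controls and reached overlapping levels after LPS. Its log2 effect was 2.41 ± 0.25 (SE, adjusted p = 0.0284).

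NFKBIA was abundant before LPS, at 85.5 and 77.3 TPM in the THP-1 controls and 57.3 and 65.6 TPM in the U937 controls, and reached 213 and 187 TPM and 175 and 174 TPM. The log2 effect of 1.39 ± 0.16 (SE, adjusted p = 0.0435) was thus carried by all 4 LPS libraries, which lay above all 4 controls. FTH1 stood at 1025 and 780 TPM in the THP-1 controls, 2276 and 2188 TPM after LPS, 679 and 717 TPM in the U937 controls and 1517 and 1283 TPM after LPS. It had the highest level and the smallest log2 effect of the 6, at 1.16 ± 0.14 (SE, adjusted p = 0.045). FTH1 has many processed copies, 1 of which, FTH1P3, chosen after its values were seen, stood at 49.6 and 38.9 TPM, 115 and 94.8 TPM, 32.5 and 44.4 TPM, and 87.7 and 67 TPM in the same order, with a log2 effect of 1.11 (adjusted p = 0.612). Reads of FTH1 and its copies may be split, so both are uncertain. The light chain gene FTL, also chosen after its values were seen, had a log2 effect of 0.23 (adjusted p = 0.612).

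**Figure D2:**
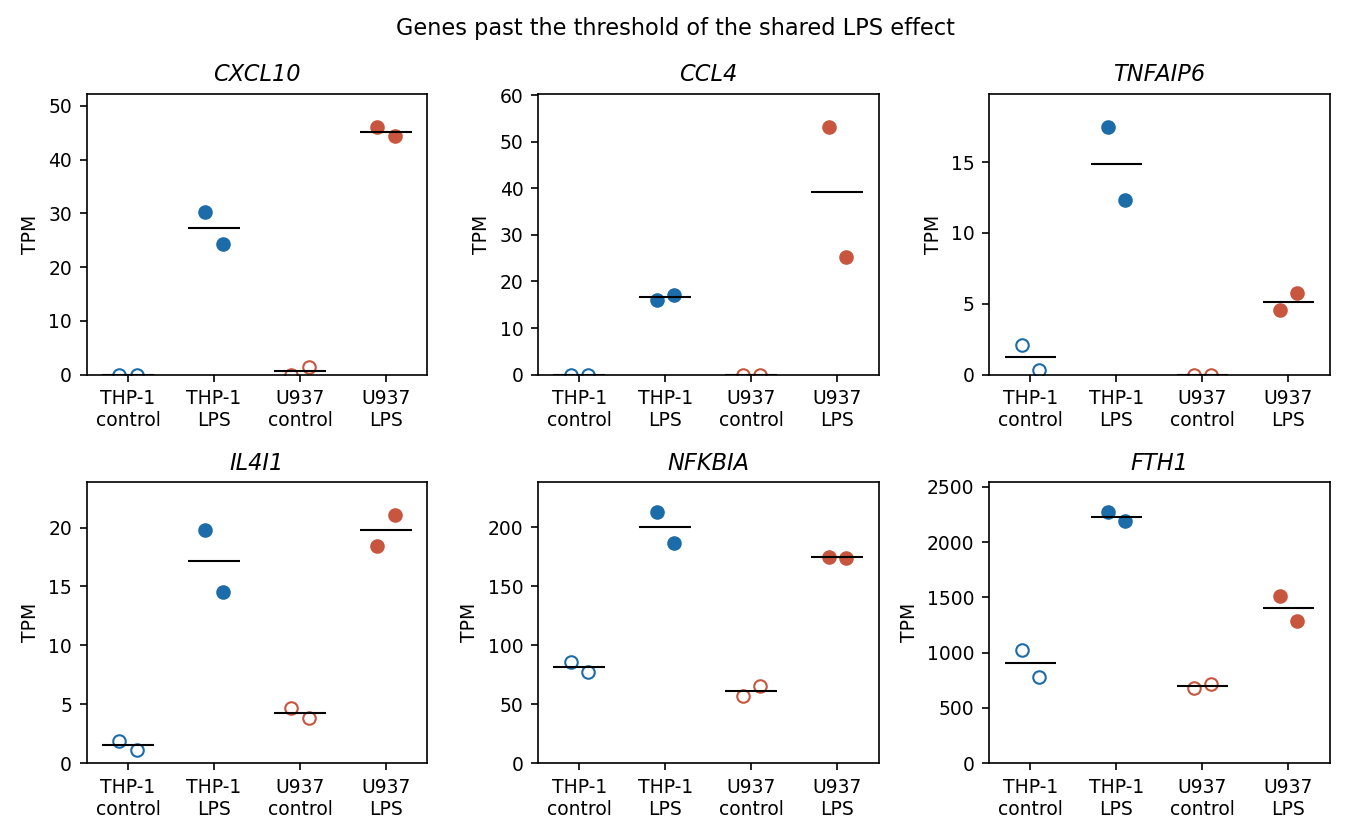
TPM (vertical axis, linear from 0) of the 6 genes past the threshold in each of the 8 libraries; open points are control libraries, filled points LPS libraries, and horizontal bars the mean of 2. In every panel both LPS points of a line lie above both control points of that line.

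The calls differed in how far they rested on single libraries. CXCL10 and CCL4 passed in each of the 8 fits that left out 1 library, with adjusted p up to 0.0266. TNFAIP6 passed in 3 of these 8 fits, and was lost without either THP-1 LPS library, either U937 control or U937 LPS library 2, with adjusted p up to 0.234. IL4I1, NFKBIA and FTH1 passed in 1 of the 8, the fit without U937 LPS library 1, with adjusted p up to 0.275, 0.367 and 0.367 in the other 7. Their log2 effects moved little: from 2.23 to 2.55 for IL4I1, 1.33 to 1.45 for NFKBIA and 1.05 to 1.24 for FTH1. Of the 6, CXCL10, CCL4, TNFAIP6, NFKBIA and FTH1 are in the bin of shortest transcripts, in which U937 LPS library 1 ran high. The effects without that library were 4.83, 4.37, 2.86, 1.36 and 1.14, and 2.54 for IL4I1.

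A further 7 genes are described from among the next largest rises in which LPS and control libraries did not overlap in either line. None of them passed the threshold, so their values are given as a description. No overlap in both lines was found upwards in 206 of the 12799 genes (1.61%) and downwards in 1066 (8.33%). Of the 206, 51.5% were in the bin of shortest transcripts, in which U937 LPS library 1 ran high and which holds 20% of tested genes. Among the genes higher without overlap when that library was left out, the share was 27.8%. Without U937 LPS library 1 these counts were 493 (3.85%) and 1183 (9.24%). Leaving out any of the 8 libraries makes no overlap easier to meet, and both counts rose in each such case. List counts given below without U937 LPS library 1 have the same limit. After median-of-ratios scaling, which moved the median log2 effect of all genes from -0.20 to 0.00, the counts were 506 and 579.

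The chemokines among the 7 were CCL3, CCL2 and CCL20. CCL3, a ligand of CCR1 encoded beside CCL4, stood at 4.14 and 0.648 TPM in the THP-1 controls, 9.53 and 10.6 TPM after LPS, 4.7 and 4.91 TPM in the U937 controls and 83.6 and 33.6 TPM after LPS, with a log2 difference of 2.57 (adjusted p = 0.601). CCL2, which draws monocytes through CCR2, stood at 2.81 and 0 TPM, 14.4 and 4.84 TPM, 275 and 314 TPM, and 1182 and 565 TPM in that order, with a log2 difference of 1.88 (adjusted p = 0.612). U937 controls thus held more CCL2 than THP-1 did after LPS. CCL20, the ligand of CCR6, whose promoter is printed above, stood at 0.712 and 0.612 TPM, 7.77 and 2.86 TPM, 3.81 and 2.14 TPM, and 15.4 and 10.4 TPM, with a log2 difference of 1.81 in each line (adjusted p = 0.369). For CCL3 and CCL2, U937 LPS library 1 lay above library 2 by a wider gap than that between the U937 controls.

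IL1B, which encodes the secreted cytokine IL-1β, stood at 3.6 and 6.37 TPM in the THP-1 controls, 69.2 and 37.4 TPM after LPS, 2.85 and 5.82 TPM in the U937 controls and 10.3 and 9.22 TPM after LPS. The log2 difference was 3.16 in THP-1 and 1.07 in U937 (common effect 2.11, adjusted p = 0.612). TNF, the cytokine tumour necrosis factor, stood at 0.597 and 1.19 TPM, 5 and 5.92 TPM, 0.901 and 0.737 TPM, and 1.27 and 2.64 TPM in that order, with a common effect of 1.22 (adjusted p = 0.612). In THP-1 LPS library 1, 1 TPM of TNF stood for 49.8 recovered reads, against 4.65 for CXCL10, so neither its TPM level nor its log2(TPM + 1) effect is comparable with that of other genes. Its effect was 1.81 with a pseudocount of 0.1 and 2.16 by limma-voom on the recovered reads.

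The regulators were RELB and NFKBIE. RELB, an NF-kB subunit, stood at 2.37 and 2.72 TPM in the THP-1 controls, 17 and 11.9 TPM after LPS, 1.88 and 3.04 TPM in the U937 controls and 3.81 and 7.18 TPM after LPS. NFKBIE, the inhibitor IκBε, stood at 9.75 and 14.5 TPM, 24.4 and 21.5 TPM, 9.73 and 14.8 TPM, and 37.5 and 27.6 TPM. The common effects were 1.49 and 1.12 (adjusted p = 0.612 for both). RELB had a larger difference in THP-1 than in U937, and NFKBIE a larger one in U937.

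**Figure D3:**
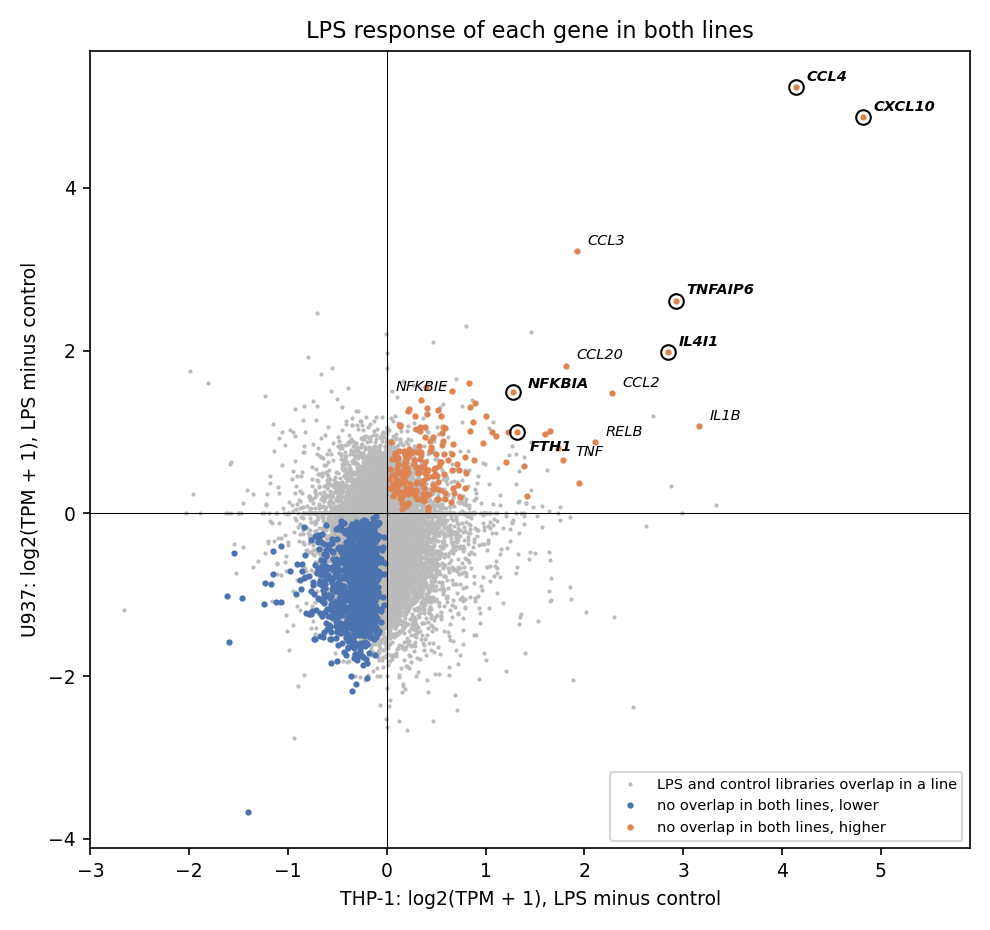
Difference in log2(TPM + 1) between LPS and control in THP-1 (horizontal axis) and in U937 (vertical axis) for each of the 12799 tested genes. Orange and blue points are the 206 and 1066 genes without overlap in both lines, rings mark the 6 genes past the threshold, and CXCL10 and CCL4 lie farthest from 0 in both lines.

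A log2 difference of at least 1 in each line, a bound added after the data were seen, left 12 higher genes without overlap (0.0938%) and 7 lower ones (0.0547%). The 12 were CXCL10, CCL4, TNFAIP6, IL4I1, NFKBIA, CCL3, IL1B, CCL2, CCL20, CXCL11, BCL3 and LEAP2. CXCL11, a second CXCR3 ligand, stood at 0 and 0 TPM, 1.31 and 0.753 TPM, 0.667 and 0.375 TPM, and 3.38 and 1.76 TPM in the order above. BCL3, a nuclear IκB protein, stood at 0.482 and 0.968 TPM, 3.23 and 5.82 TPM, 0 and 0.645 TPM, and 2.03 and 1.21 TPM. The 7 lower genes were SNHG25, SNORA3B and SNORA64, which encode or host small nucleolar RNAs, and TMEM150A, LRRC20, ZNF487 and TCN2, most of them under 15 TPM in THP-1.

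Gene lists were read by the number of members without overlap in both lines, against 1.61% upwards and 8.33% downwards over all tested genes. The filter of 1 TPM in 2 libraries admits genes through their LPS libraries alone. CCL4, CXCL10, CXCL11, BCL3, TNFAIP6 and TNF entered in that way, so the upward shares of their lists are partly set by the filter. Of 23 listed chemokines, 14 were tested. Among these, 7 (50%) were higher without overlap, namely CCL2, CCL3, CCL4, CCL5, CCL20, CXCL10 and CXCL11, with 2 past the threshold. Their median log2 effect was 1.09, against -0.20 over all tested genes, and 0.95 against -0.06 without U937 LPS library 1. CCL5, a T cell chemoattractant, was the only 1 of the 7 above 30 TPM in every control, at 33.8 and 36.6 TPM in THP-1 and 139 and 154 TPM in U937, with 39.9 and 49.7 TPM and 319 and 170 TPM after LPS. Of the NF-kB inhibitors and feedback genes, 4 of 17 (23.5%) were higher without overlap: NFKBIA, NFKBIE, BCL3 and RELB. Without U937 LPS library 1 there were 9, against 3.85% of all tested genes, and 4 of the 13 genes then past the threshold were in this list.

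Among inflammatory cytokines, 2 of 9 tested were higher without overlap, TNF and IL1B. The 2 with the highest levels, IL18 and the IL-1 receptor antagonist IL1RN, had log2 effects of 0.13 and -0.16 (adjusted p = 0.743 and 0.727). IL6 was below the filter and was listed at 0 in 7 of the 8 libraries, with 0.474 TPM in U937 LPS library 2. In the list of macrophage activation genes, 3 of 21 were higher, namely TNFAIP6, the urokinase receptor gene PLAUR and the mitochondrial superoxide dismutase gene SOD2, and 2 were lower, TNFAIP8 and SERPINB2. Without U937 LPS library 1, 12 of the 21 were higher without overlap, against 3.85% of all tested genes. PLAUR stood at 90.6 and 99.5 TPM, 134 and 117 TPM, 65.3 and 68.7 TPM, and 286 and 137 TPM. SOD2 stood at 9.18 and 11.7 TPM, 35 and 23.8 TPM, 24.4 and 26.6 TPM, and 39.4 and 38 TPM.

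Interferon-stimulated genes other than the chemokines were a separate list. Of its 28 tested members, 0 passed the threshold, and the median log2 effect was 0.07. Without overlap, 2 were higher (IFI27 and XAF1) and 2 lower (MX2 and HERC5). Each is 7.14% of the list, against 1.61% and 8.33% of all tested genes. Without U937 LPS library 1, 7 of the 28 were higher and 2 lower without overlap, against 3.85% and 9.24% of all tested genes. The median was then 0.21, beside -0.06 over all tested genes. ISG15, a ubiquitin-like modifier, had a log2 effect of 0.42 (adjusted p = 0.612) that was 0.12 without U937 LPS library 1. Of the 17 immediate-early and AP-1 genes, 0 were without overlap in both lines. Without U937 LPS library 1 there were 3 higher and 1 lower, against the same 3.85% and 9.24%. Their median was 0.49 in THP-1 and -0.27 in U937. MYC had a log2 effect of -0.61 (adjusted p = 0.612) that was -0.04 without U937 LPS library 1.

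**Figure D4:**
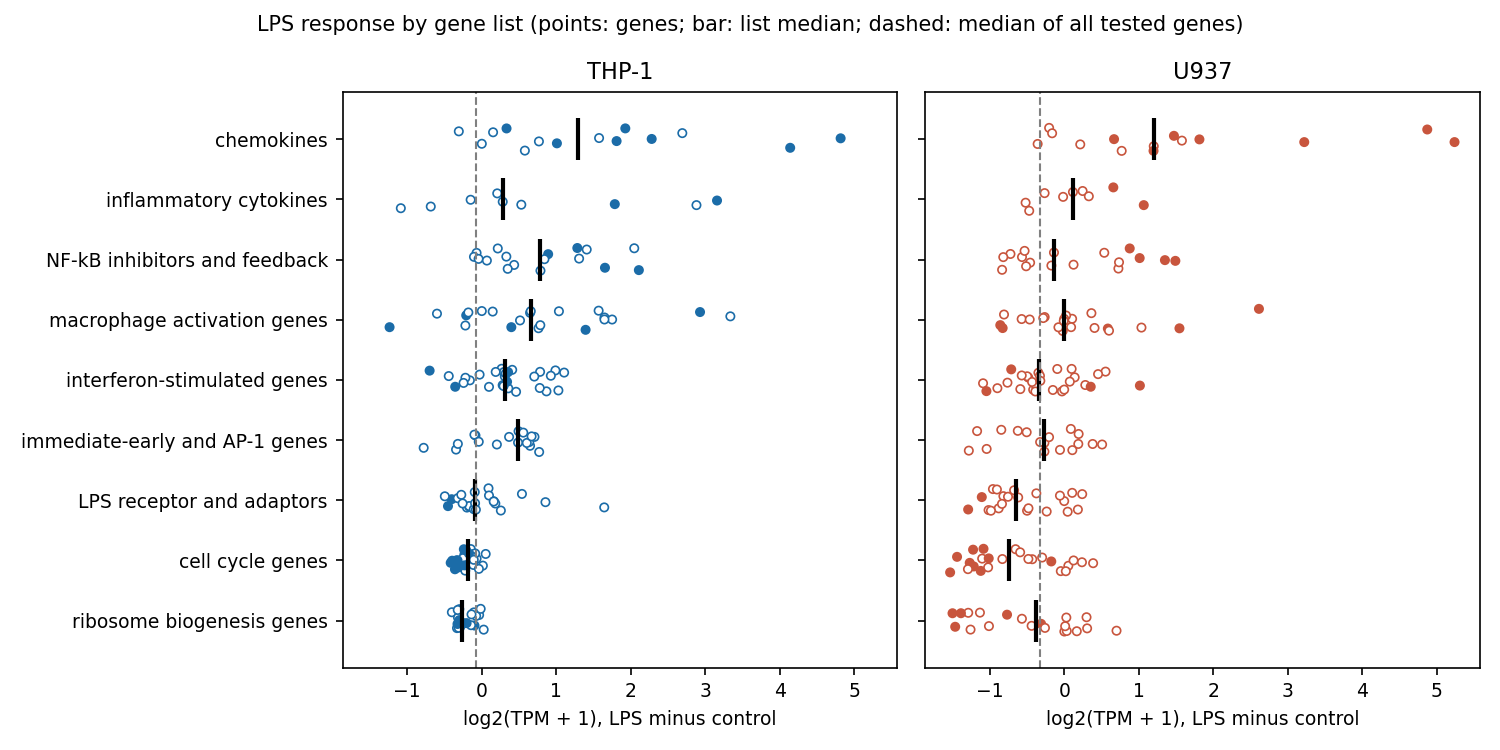
Difference in log2(TPM + 1) between LPS and control (horizontal axis) in THP-1 (left) and U937 (right) for the tested members of 9 gene lists. Filled points are genes without overlap in both lines in 1 direction, bars are list medians and dashed lines the medians of all tested genes, -0.07 in THP-1 and -0.33 in U937; the chemokine medians are 1.29 and 1.20.

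Of the receptor and adaptor genes, 0 of 22 were higher without overlap and 2 were lower, TLR4 and TIRAP. This lower share of 9.09% was near the 8.33% of all tested genes. TLR4 stood at 8.5 and 9.28 TPM in the THP-1 controls, 5.97 and 6.99 TPM after LPS, 30.6 and 26.9 TPM in the U937 controls and 6.23 and 19.4 TPM after LPS. Its log2 effect was -0.85 ± 0.35 (SE, adjusted p = 0.612), and -0.46 without U937 LPS library 1. TIRAP stood at 12.7 and 11.7 TPM, 11.3 and 6.55 TPM, 5.8 and 7.74 TPM, and 1.42 and 4.31 TPM. MYD88 and IRAK1, which had the highest levels of the list, overlapped between LPS and control in at least 1 line.

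Of the lists, cell cycle genes had the largest share of lower values without overlap. Of 24 cell cycle genes, 9 (37.5%, against 8.33% of all tested genes) were lower without overlap in both lines: MCM2 to MCM7, which form the replicative helicase, its loader CDC6, the transcription factor E2F1 and the mitotic gene CDC20. None passed the threshold. The count was again 9 of 24 without U937 LPS library 1, against 9.24% of all tested genes. After median-of-ratios scaling it was 7 of 24, against 579 of all 12799 tested genes. The list's median log2 effect of -0.45 was -0.07 without U937 LPS library 1, beside -0.06 over all tested genes. After median-of-ratios scaling 9 of the 24 had effects above 0. After quantile normalization 2 did, and 8 were lower without overlap, against 615 of all 12799 tested genes. The list's median was then -0.30, beside -0.00 over all tested genes and -0.38 over the housekeeping genes. MCM5 stood at 338 and 338 TPM in the THP-1 controls, 292 and 244 TPM after LPS, 270 and 250 TPM in the U937 controls and 45.2 and 200 TPM after LPS. MCM4 stood at 233 and 240 TPM, 196 and 173 TPM, 294 and 290 TPM, and 68 and 227 TPM. Their log2 effects were -0.89 and -0.79 (adjusted p = 0.612 for both), and -0.35 and -0.36 without U937 LPS library 1. The log2 effects of all 6 MCM genes were below 0 with the deposited TPM, median-of-ratios scaling and quantile normalization. These 6 were singled out for being lower without overlap in the same libraries, so their signs are a description only.

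Ribosome biogenesis genes (5 of 20 lower), unfolded protein and stress response genes (4 of 18) and sterol synthesis genes (3 of 19) had lower shares of 25%, 22.2% and 15.8%. Under median-of-ratios scaling the count of ribosome biogenesis genes was 1 of 20, against 579 of all 12799 tested genes. Their median turned from -0.27 to 0.01. Under quantile normalization the count was 4 of 20, against 615 of all 12799 tested genes, and the median -0.21. The chaperone gene HSPA5 stood at 596 and 636 TPM in the THP-1 controls, 570 and 482 TPM after LPS, 629 and 656 TPM in the U937 controls and 149 and 551 TPM after LPS. Nucleolin (NCL) stood at 1128 and 1115 TPM, 1052 and 1042 TPM, 1288 and 1238 TPM, and 922 and 1123 TPM. Of 14 housekeeping genes, 1 was lower without overlap, and their median of -0.35 was -0.01 without U937 LPS library 1. It was -0.07 under median-of-ratios scaling and -0.38 under quantile normalization.

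The 8 largest falls without overlap, none past the threshold, rested mostly on U937 LPS library 1. UHRF1, a factor that maintains DNA methylation, stood at 145 and 145 TPM in the THP-1 controls, 105 and 120 TPM after LPS, 155 and 151 TPM in the U937 controls and 14.7 and 93.1 TPM after LPS. Its log2 effect of -1.18 was -0.50 without U937 LPS library 1. PYCRL, a proline synthesis enzyme, stood at 56.5 and 52.6 TPM, 35.6 and 29.5 TPM, 19 and 26.7 TPM, and 2.49 and 17.6 TPM. DPH1, PM20D2, HDAC10 and PIGA followed the same order of libraries, with U937 LPS library 1 the lowest of the 4 U937 libraries. SNHG25, a host of small nucleolar RNA, was the largest, at 16.2 and 13.9 TPM, 4.71 and 5.43 TPM, 24.1 and 5.41 TPM, and 0 and 0 TPM. LRRC20 stood at 4.96 and 5.9 TPM, 2.24 and 0.665 TPM, 5.6 and 6.46 TPM, and 1.19 and 4.27 TPM.

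Without U937 LPS library 1, 13 genes rose past the threshold and 0 fell. They were the 6 genes above and 7 others: CXCL8, TNFAIP3, ZC3H12A, NFKBIZ, RELB, BTG2 and SQSTM1. CXCL8, the neutrophil chemokine IL-8, stood at 3.16 and 1.51 TPM in the THP-1 controls, 27.8 and 14.1 TPM after LPS, 5.95 and 6.34 TPM in the U937 controls and 4.92 and 44.6 TPM after LPS. TNFAIP3, the deubiquitinase A20 that ends NF-kB signalling, stood at 3.04 and 3.59 TPM, 21.2 and 13.2 TPM, 5.98 and 4.19 TPM, and 4.23 and 18.2 TPM. ZC3H12A, the RNase Regnase-1 that degrades cytokine mRNA, stood at 6.1 and 5.43 TPM, 18.3 and 15.3 TPM, 7.25 and 7.51 TPM, and 4.54 and 32 TPM. NFKBIZ, a nuclear IκB protein, stood at 1.79 and 1.84 TPM, 6.17 and 5.75 TPM, 1.91 and 1 TPM, and 1.23 and 6.18 TPM. BTG2 stood at 16 and 13.8 TPM, 48.9 and 36.9 TPM, 5.52 and 5.54 TPM, and 2.9 and 15.2 TPM.

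In each of these 5 genes U937 LPS library 1 lay at or below the level of at least 1 control and library 2 above both controls. The log2 effects without library 1 were 2.68 for CXCL8, 1.90 for TNFAIP3, 1.63 for ZC3H12A, 1.41 for NFKBIZ and 1.40 for BTG2. With all 8 libraries they were 1.95, 1.39, 1.04, 1.02 and 0.87 (adjusted p = 0.612 for each). SQSTM1, the autophagy receptor p62, stood at 188 and 200 TPM, 313 and 291 TPM, 195 and 194 TPM, and 104 and 298 TPM. Weighting each library by its fit, which gave U937 LPS library 1 a weight of 0.0454, called 17 higher genes and 1 lower, the small nucleolar RNA gene SNORA64.

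The difference in response between the lines was tested for each gene. With all 8 libraries 0 of 12799 genes differed past the threshold, with 579 at an unadjusted p under 0.05 and 0 by limma-voom. For the 6 called genes the difference, THP-1 minus U937, was -0.06 ± 0.60 for CXCL10, -1.10 ± 0.51 for CCL4, 0.31 ± 0.58 for TNFAIP6, 0.87 ± 0.42 for IL4I1, -0.21 ± 0.32 for NFKBIA and 0.32 ± 0.26 for FTH1 (SE, adjusted p from 0.741 to 0.972). The widest errors span differences of more than 1 on the log2 scale, so the test does not show that the lines respond alike. IL1B differed by 2.09 ± 0.62 (adjusted p = 0.741).

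The same genes were then read in the lymphocyte lines, whose libraries did not enter the LPS fit. WT Jurkat cells were stimulated with an antibody to CD3 and the phorbol ester PMA, and WT BJAB cells with antibodies to IgM and CD40, each for 4 hours, with 2 control and 2 stimulated libraries per line. Of the 6 genes, 3 rose in Jurkat (CCL4, IL4I1 and NFKBIA, against 1.7% of tested genes) and 2 in BJAB (CCL4 and NFKBIA, against 1.13%). None of the 6 fell in Jurkat or BJAB, where 0.648% and 3.15% of tested genes fell. The first stimulated BJAB library also stood apart, with ACTB at 1858 TPM against 7488 TPM in the second. NFKBIA stood at 45.3 and 50.5 TPM in the Jurkat controls, 315 and 367 TPM after stimulation, 29.5 and 32.3 TPM in the BJAB controls and 84.5 and 150 TPM after stimulation. CCL4 was at 0 in all 4 lymphocyte controls and at 17.5 and 8.08 TPM in stimulated Jurkat and 83 and 68.3 TPM in stimulated BJAB.

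CXCL10 and TNFAIP6 were listed at 0 in all 8 lymphocyte libraries. For these 2 genes the difference between the LPS effect and the mean lymphocyte effect is the LPS effect itself, so its test adds nothing to the calls above. In a fit of all 16 libraries the difference was tested for every gene. Over all genes, 20 (0.156%) had a larger and 59 (0.461%) a smaller LPS effect. FTH1 missed the threshold, with a difference of 1.04 ± 0.22 (SE, adjusted p = 0.0666). The differences for CCL4, IL4I1 and NFKBIA were -0.29 ± 0.36, -0.11 ± 0.55 and -0.93 ± 0.26 (adjusted p = 0.834, 0.971 and 0.193). Of the further rises, IL1B had a larger LPS effect by 1.92 ± 0.37 (adjusted p = 0.0476) and CCL3 a smaller one, with a difference of -3.08 ± 0.52 (adjusted p = 0.0242), since CCL3 reached 615 and 350 TPM in stimulated BJAB from 0 and 0.395 TPM. RELB stood at 41.4 and 44.1 TPM in stimulated Jurkat, from 1.1 and 0.611 TPM.

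**Figure D5:**
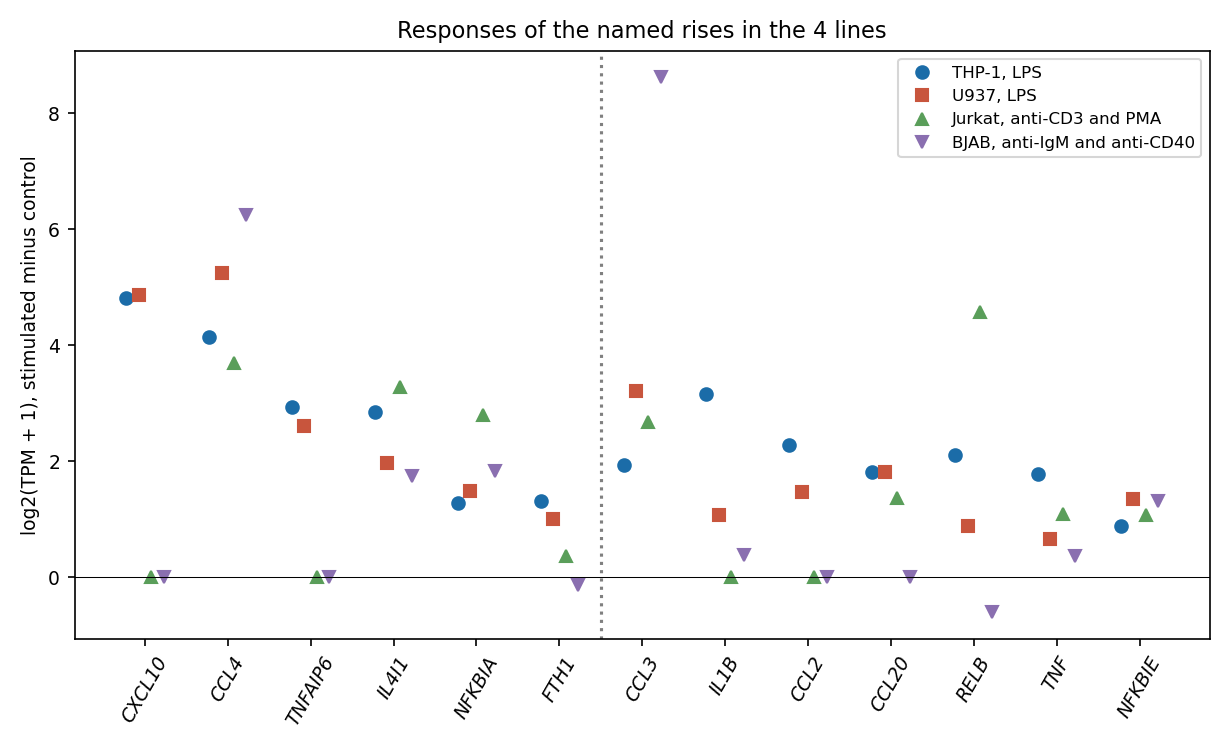
Difference in log2(TPM + 1) between stimulated and control libraries (vertical axis) of 13 named rises (horizontal axis, the 6 past the threshold left of the dotted line) in THP-1, U937, Jurkat and BJAB; each point is the difference of 2 means of 2 libraries. CXCL10 and TNFAIP6 are at 0 in both lymphocyte lines and CCL4 is above 3 in all 4 lines.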

How the data were processed

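RNA was sequenced from SmartSeq2 libraries, primed with oligo-dT per the labels' protocols. The authors deposited TPM values from uniquely aligned reads (per the files' names), 27311 genes per library. Reads were aligned with TopHat2 to hg19, per the submitters' processing notes; the counting program and annotation were not stated in the sources used here. Each library summed to 1000000. Whole reads were recovered from the increments of TPM (tolerance 5e-05) for 93.5% of the 19092 genes above 0. They gave the depth, relative transcript lengths and a voom test (5 genes called). PCR reads are not independent molecules, so floors of 3 reads cover counting error only. Genes that reached 1 TPM in 2 or more of the 8 libraries (12799) were fitted with limma 3.58.1 in R 4.3.3 on log2(TPM + 1), with line and LPS as terms and a trend of spread with level (5 residual degrees of freedom, prior 3.34). All tests were two-sided, adjusted by Benjamini-Hochberg over the tested genes. The difference between lines used group means, and the lymphocyte contrasts all 16 libraries.

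The named genes were the 14 largest rises and 8 largest falls without overlap in both lines and with a mean of at least 5 TPM, first those past the threshold, small RNA genes left out, plus up to 4 called or the 2 highest members of each list, and TLR4, LY96 and CD14. The members and lists were chosen with earlier results of these data known. Alternatives changed the pseudocount, filter, minimum change, scaling, trend, weights, libraries, block or test. The counts without overlap under leave-outs, scaling and filters, and the minimum of 1 in each line, were added after the data were seen. Mitochondrially encoded genes were not analysed here, and 2 genes that the rule names are not reported here. Both computations were tested on simulated data. The simulation of the fit gave every group the same spread. It therefore checks the computation and not the calls under the wider spread of the U937 LPS libraries.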

Additional observations from a re-analysis of the deposited data

How the results depend on the processing

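The 6 higher calls became 1 with a pseudocount of 0.1 (CCL4), 17 with array weights, 14 with all 16 libraries in the fit, 3 with group means as terms, and 2 to 13 when each library was left out, the 13 without U937 LPS library 1. The other settings gave 4 to 6, apart from the replicate block below. Lower calls were 0, except 1 with array weights (SNORA64) and 2 with all 16 libraries (MIR221 and SNORD124). Calls without overlap in both lines were 1, 11, 10 and 3 higher in the same 4 settings, 2 to 13 under leave-outs, and 1 lower with array weights. CCL4 passed in all 21 alternatives, CXCL10 in 20, TNFAIP6 in 13, IL4I1 in 12, NFKBIA in 9 and FTH1 in 5, and no log2 effect of the 6 changed sign.

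Deviations of same-numbered libraries were not correlated over genes (r = 0.0213 in THP-1 and -0.0444 in U937). With 2 libraries per group this cannot tell whether same-numbered libraries were prepared together. With the replicate block, 3 genes were called (CXCL10, CCL4 and TNFAIP6), all 3 without overlap, and 22 differed from the lymphocyte lines.

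Genes without overlap numbered 506 higher and 579 lower after median-of-ratios scaling, 311 to 518 higher and 1183 to 2514 lower under leave-outs. Genes that differed between THP-1 and U937 were 3 with all 16 libraries and 0 to 5570 under leave-outs, the 5570 without U937 LPS library 2. The 79 genes that differed between LPS and lymphocyte responses became 163 with a pseudocount of 5 and 33 to 1588 under leave-outs. Of the 6 genes, 2 to 4 differed under leave-outs, the 4 without U937 LPS library 2. In Jurkat 2 to 3 and in BJAB 2 to 3 of the 6 were called. The cause of these changes was not tested. With all 16 libraries, the 2 of the 6 genes that differed from the lymphocyte lines were CXCL10 and TNFAIP6. Both stood at 0 in every lymphocyte library, so counting them adds nothing to their LPS calls.

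The 2 libraries per group limit the calls, and genes with few reads in the controls have effects that depend on the pseudocount. Dose, line and construct cannot be told apart.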
